A study of Mus musculus with 24 samples.

Results

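The 10 genes described here encode the receptor complex that senses lipopolysaccharide (LPS), a related receptor, and the adaptors, kinases and ligase directly below them: Tlr4, Ly96, Cd14, Tlr2, Myd88, Ticam1, Ticam2, Irak4, Irak3 and Traf6. They were taken by symbol from a list of TLR4 sensing and adaptor genes, and all 10 were among the 13290 genes in the count tables. RNA was sequenced from BV2, an immortalised mouse microglial line, and from the extracellular vesicles (EVs, membrane particles released into the medium) of that line. Cultures were untreated or received LPS at 100 ng/mL, interleukin-10 (IL-10) at 50 ng/mL or transforming growth factor beta (TGFB in the labels) at 50 ng/mL, for 72 h. Each of the 4 conditions gave 3 cell and 3 EV libraries, 24 in all, so the data describe 1 established line in culture and no primary microglia. All groups share the line, the kit and the 18 PCR cycles of the library protocol.

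LPS-binding protein passes LPS to CD14, a surface protein that hands it to the complex of TLR4 and the LY96 protein. From the cell surface TLR4 signals through MYD88, which recruits IRAK4 and other IRAK kinases and then the ubiquitin ligase TRAF6, and this leads to NF-kappa B and inflammatory cytokines. From endosomes it signals through TICAM2 and TICAM1, which lead to interferon regulatory factors. TLR2 senses bacterial lipoproteins, also uses MYD88, and does not need LY96 for that. IRAK3, also called IRAK-M, is an inhibitory family member that rises in macrophages after repeated or long exposure to LPS.

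Sequencing depth ran from 26.14 to 42.13 M counts in cells and from 3.02 to 17.98 M in EVs. A gene with no count in a library could still lie at up to 0.0712 to 0.115 CPM (counts relative to the library total) in cells and 0.167 to 0.994 CPM in EVs, from 3 counts and for counting error only. Of 12 microglia and macrophage markers 11 were listed, and they summed to 5550 to 8280 CPM in every cell library, with Cx3cr1 at 0 in the IL-10 cells and P2ry12 not listed. The LPS EV libraries stood apart from the other EV libraries. They had 0.49 to 4.42% of the listed genes at 0, against 28.98 to 33.45% in control EVs, 22.02 to 37.02% after IL-10 and 19.58 to 50% after TGFB. Genes with no count in any cell library took 0.116 to 0.499% of the counts in LPS EVs and 0.00255 to 0.0131% in control EVs. Some marker lists of other cell types were higher there: the 3 listed neuron markers of 5 summed to 20.1 to 146 CPM in LPS EVs against 0 to 9.13 in control EVs, with Rbfox3 and Syt1 at 0 in the controls. The 2 listed endothelial markers of 5 summed to 13.7 to 72.5 CPM against 0. The 3 listed astrocyte markers of 5 summed to 31.3 to 177 against 0 to 40.5, ranges that overlapped. The astrocyte marker Aldh1l1 averaged 8.92 in LPS EVs and 16.7 in controls. The 2 listed T cell markers of 5 summed to 14.2 to 37.4 CPM against 0 to 10.6 in control EVs. They are not particular to LPS EVs, since they summed to 2.98 to 63.6 in IL-10 EVs and 0 to 24.6 in TGFB EVs. The lists of neutrophils (7.01 to 13.6 against 0.779 to 9.39) and oligodendrocytes (6.21 to 31.8 against 0 to 88) also overlapped between the groups, and Mbp averaged 2.78 in LPS EVs and 20.2 in controls. The part of these markers in the EV results below was not tested.

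Levels are given as scaled CPM, CPM after TMM scaling of all 24 libraries together, so that 1 scale serves cells and EVs, and between genes as scaled CPM per kb of exon. Changes are log2 fold changes from edgeR's quasi-likelihood test, and a gene is called at a Benjamini-Hochberg adjusted p under 0.05 over all genes tested. Means are ± SD with n = 3 libraries. Whether the libraries of a group came from separate cultures is not stated in the labels, so p-values measure only the spread between libraries and may reflect technical spread. In bulk RNA, a lower level in every cell and fewer cells with the transcript cannot be told apart.

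Promoter sequence was at hand for 6 members, from RefSeq (build GRCm38.p6): Tlr2, Myd88, Ticam1, Irak3, Irak4 and Traf6. The 4 shown are the genes with a motif match and Ticam1, which fell after LPS and has none. Each is the longest part of the 250 bases before the RefSeq start that lies in no annotated exon, written 5′ to 3′ on the gene's strand. Capitals mark motif matches.
Tlr2, chr3:83841768-83841858, minus strand: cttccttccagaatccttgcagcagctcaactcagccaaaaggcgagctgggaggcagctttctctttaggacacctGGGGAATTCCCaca
Myd88, chr9:119340042-119340268, minus strand: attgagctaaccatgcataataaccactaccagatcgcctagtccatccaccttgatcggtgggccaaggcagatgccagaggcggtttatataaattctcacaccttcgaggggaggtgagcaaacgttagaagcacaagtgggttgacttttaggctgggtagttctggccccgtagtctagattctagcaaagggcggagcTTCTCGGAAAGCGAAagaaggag
Irak3, chr10:120202196-120202380, minus strand: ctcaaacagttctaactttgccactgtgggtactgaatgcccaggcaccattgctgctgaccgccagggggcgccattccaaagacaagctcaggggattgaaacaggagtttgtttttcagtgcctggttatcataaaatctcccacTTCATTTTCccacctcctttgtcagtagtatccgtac
Ticam1, chr17:56276787-56277017, minus strand: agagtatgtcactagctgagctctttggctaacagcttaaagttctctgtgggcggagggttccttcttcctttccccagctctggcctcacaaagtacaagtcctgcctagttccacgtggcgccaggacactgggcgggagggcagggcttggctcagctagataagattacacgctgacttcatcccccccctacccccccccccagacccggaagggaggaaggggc
The motifs searched on both strands of the 250 bases were the kappa B motif, the interferon response core GAAANNGAA, the STAT site TTCNNNGAA and the AP-1 site TGANTCA. In Tlr2 the capitals are 2 overlapping kappa B matches, from base -173 to -163 counted back from the start. In Myd88 they are a STAT site from -46 to -38 and an interferon response core from -40 to -32, which share 3 bases. The Myd88 stretch lies before the RefSeq start but inside the gene's annotated span (chr9:119335934-119341411), so it is not upstream of the outermost annotated start. In Irak3, which has 2 listed starts, the capitals are an interferon response core read on the other strand, from -102 to -94 before the upstream start. Of 32851 promoters of that length, 3.9% held the kappa B motif, 7.13% the interferon response core, 7.02% the STAT site and 6.75% the AP-1 site, so each match is a description of the letters only.

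In untreated cells Cd14 was by far the most abundant member per kb of exon, at 125 ± 9.94 scaled CPM per kb. Ticam1 (18 ± 0.419), Tlr2 (16.6 ± 1.04) and Myd88 (15.6 ± 1.29) followed, and Tlr2 and Myd88 did not differ beyond their spread. Tlr4 (10.4 ± 0.887), Traf6 (10.4 ± 0.91) and Ly96 (8.83 ± 0.993) lay close together, each within the spread of the next. Irak4 stood at 5.75 ± 0.181. Irak3 (1.75 ± 0.176) and Ticam2 (1.54 ± 0.209) were lowest and did not differ beyond their spread.

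LPS changed 9 of the 10 members in cells: Tlr2, Irak3, Ticam2, Cd14 and Myd88 rose, and Traf6, Ticam1, Tlr4 and Irak4 fell. Across all genes 56.1% of those tested were called in this comparison, and the members' count is to be read against that share. The median log2 change of the members was 0.31, against 0.01 over all genes tested.

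The sensing complex split. Tlr4 (chr4:66827584-66930284), the signalling receptor, read 61.1, 52.2 and 60.3 scaled CPM in control libraries and 44.1, 32.6 and 40.9 after LPS. The groups did not overlap, and Tlr4 fell 1.46-fold (log2 change -0.55, SE 0.11, edgeR adjusted p = 0.000312). Ly96 (chr1:16688051-16709611), whose protein holds the lipid part of LPS, read 10, 8.01 and 9.01 in controls and 7.62, 7.21 and 8.76 after LPS. These groups overlapped, and the difference was not called (log2 change -0.18, SE 0.16, edgeR adjusted p = 0.348). Cd14 (chromosome 18), the protein that delivers LPS, read 230, 198 and 225 in controls and 435, 550 and 561 after LPS. Every LPS library lay above every control, a 2.39-fold rise (log2 change 1.26, SE 0.09, edgeR adjusted p = 2.06e-09).

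Tlr2 (chr3:83836272-83841767), the lipoprotein receptor, shared the largest rise of the 10 with Irak3. Its control libraries read 49.4, 47.4 and 53.6 scaled CPM and its LPS libraries 395, 420 and 403. The rise was 8.16-fold (log2 change 3.03, SE 0.07, edgeR adjusted p = 3.98e-17). Per kb, Tlr2 went from 1.6 ± 0.0985 times Tlr4 in controls to 19.5 ± 3.81 times after LPS, and Cd14 from 12.1 ± 0.0959 to 43.2 ± 11.3 times Tlr4.

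**Figure D1:**
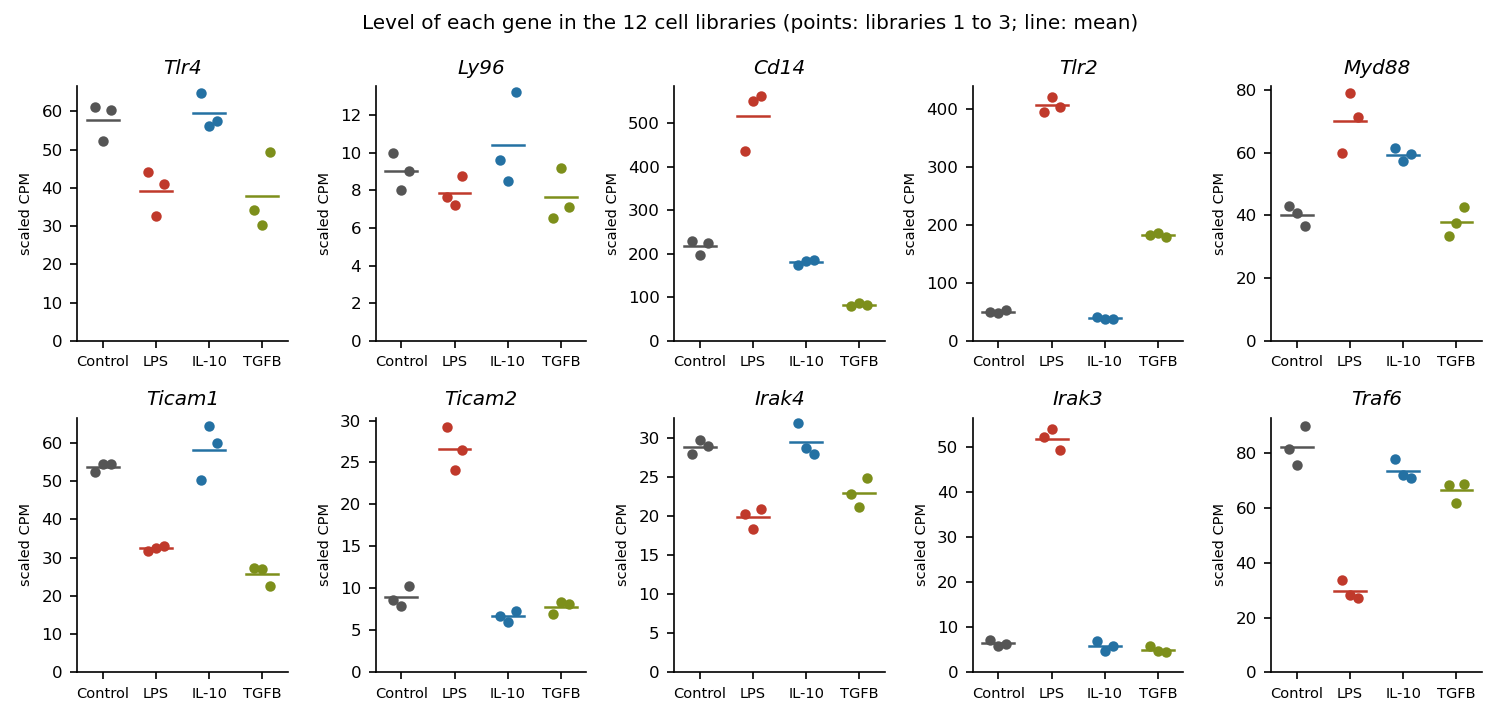
Level of each of the 10 genes in scaled CPM in the 12 cell libraries, by treatment. Points are libraries and lines are means of 3. Compared across treatments within each gene, Tlr2, Irak3, Cd14, Ticam2 and Myd88 have their highest mean after LPS. Traf6 and Irak4 have their lowest mean there, and Tlr2 is also high after TGFB.

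The adaptors also moved in opposite directions. Myd88 (chr9:119335934-119341411), the adaptor of the surface branch, read 43, 40.9 and 36.5 scaled CPM in controls and 59.8, 79 and 71.5 after LPS. It rose 1.76-fold with no overlap between groups (log2 change 0.81, SE 0.1, edgeR adjusted p = 1.3e-06). Ticam1 (chr17:56269319-56276786), the adaptor of the endosomal branch, read 52.3, 54.4 and 54.4 in controls and 31.8, 32.4 and 33 after LPS. It fell 1.64-fold, and its libraries lay close together in both groups (log2 change -0.72, SE 0.09, edgeR adjusted p = 7.51e-07). Ticam2 (chromosome 18), which links TLR4 to TICAM1, read 8.59, 7.94 and 10.3 in controls and 29.2, 24.1 and 26.5 after LPS, a 3-fold rise (log2 change 1.59, SE 0.13, edgeR adjusted p = 5.96e-09). So the bridging adaptor rose while the adaptor it recruits fell: per kb, Ticam2 went from 0.086 ± 0.0111 to 0.424 ± 0.0463 of Ticam1, and Myd88 from 0.87 ± 0.0888 to 2.51 ± 0.321 times Ticam1.

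Among the members below the adaptors, the inhibitory family member Irak3 rose, and Irak4 and Traf6, whose proteins carry the signal, fell. Irak3 (chr10:120141648-120202130) read 7.16, 5.91 and 6.23 scaled CPM in controls and 52.2, 54.1 and 49.4 after LPS. This 8.15-fold rise (log2 change 3.03, SE 0.11, edgeR adjusted p = 5.12e-14) equalled that of Tlr2 in size. Irak4 (chr15:94543643-94581815), the first kinase of the MYD88 complex, read 27.9, 29.7 and 28.9 in controls and 20.3, 18.3 and 20.9 after LPS, a fall of 1.44-fold without overlap (log2 change -0.53, SE 0.11, edgeR adjusted p = 0.000279). The 2 IRAK genes thus changed places: per kb, Irak3 stood at 0.305 ± 0.0404 of Irak4 in controls and at 3.59 ± 0.412 times Irak4 after LPS.

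Traf6 (chr2:101678429-101701669), the ligase on which the MYD88 branch converges, read 81.6, 75.5 and 89.8 scaled CPM in controls and 33.6, 28.2 and 27.2 after LPS. It fell 2.74-fold, the largest fall of the 10 (log2 change -1.46, SE 0.1, edgeR adjusted p = 2.65e-10). Per kb it went from level with Tlr4 in controls to the lowest place after LPS, at 3.76 ± 0.435, where it did not differ from Irak4 (3.95 ± 0.27) beyond the spread. All 9 of these calls held with each library left out in turn.

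Some members share exonic bases with a neighbour. Where the neighbour lies on the other strand, reads in those bases cannot be told apart unless strand was counted, and on the same strand counting by strand does not separate them. Myd88 shares 290 bases (11.3% of its exonic length) with Acaa1a, Irak4 395 bases (7.87%) with Twf1 and Irak3 192 bases (5.22%) with Tmbim4, all on the other strand. Ticam2 shares 838 bases (14.5%) with Tmed7 on the same strand. After LPS Tmbim4 rose 2.04-fold, Acaa1a 1.34-fold and Twf1 1.3-fold, and Tmed7 had a fitted ratio of 1.05 (edgeR adjusted p = 0.764). The part of shared reads in the changes of Myd88, Irak3, Irak4 and Ticam2 was not tested.

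IL-10 changed 3 of the 10 members, against 23.2% of all genes tested, a count near that share: Myd88 rose, and Tlr2 and Cd14 fell. Myd88 read 61.5, 57.3 and 59.5 scaled CPM after IL-10, above all 3 controls, a 1.48-fold rise (log2 change 0.56, SE 0.09, edgeR adjusted p = 9.71e-05). Tlr2 read 41.1, 37.6 and 37.7, below all 3 controls, a fall of 1.29-fold (log2 change -0.37, SE 0.09, edgeR adjusted p = 0.00489). Cd14 read 175, 183 and 185, also below every control, a fall of 1.2-fold (log2 change -0.27, SE 0.07, edgeR adjusted p = 0.00639), and that call was lost without control library 1 (adjusted p = 0.0591).

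The receptor itself, Tlr4, read 64.9, 56.1 and 57.4 scaled CPM after IL-10, overlapping its controls, and was not called (log2 change 0.04, SE 0.09). Ticam2 (6.74, 6.02 and 7.31) lay below its controls without passing the test (log2 change -0.42, SE 0.17, edgeR adjusted p = 0.0859). Ly96, Ticam1, Irak3, Irak4 and Traf6 had log2 changes between -0.16 and 0.2, none called. These values depend on scaling more than those of the other treatments. With library totals as the only scaling, the median of all genes moved from 0 to -0.16, the share of calls that were higher went from 52.9% to 19.7%, and Ticam2 (log2 change -0.58) and Traf6 (-0.32) were called lower as well. Under that scaling the uncalled values of Tlr4, Ticam1 and Irak4 turned to -0.12, -0.04 and -0.13, while Myd88, Tlr2 and Cd14 kept their direction and call.

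TGFB changed 6 of the 10 members, against 29.9% of all genes tested: Tlr2 rose, and Cd14, Ticam1, Tlr4, Irak4 and Traf6 fell. The members' median log2 change was -0.33, against 0.01 over all genes. Tlr2 read 182, 186 and 179 scaled CPM, well above its controls, a 3.62-fold rise (log2 change 1.86, SE 0.07, edgeR adjusted p = 1.59e-09). Cd14 read 79.7, 86.9 and 83.4, well below its controls, a fall of 2.62-fold (log2 change -1.39, SE 0.08, edgeR adjusted p = 2.53e-08). Ticam1 read 27.2, 27.1 and 22.5 and fell 2.11-fold (log2 change -1.08, SE 0.1, edgeR adjusted p = 3.59e-06). These 3 calls held with any library left out.

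The other calls after TGFB were smaller and rested on single libraries. Tlr4 read 34.1, 30.4 and 49.4 scaled CPM, all below its controls, and fell 1.53-fold (log2 change -0.61, SE 0.17, edgeR adjusted p = 0.0227). That call was lost without control library 1 (adjusted p = 0.0831) or 3 (0.0782). Irak4 (22.8, 21.2 and 24.9) fell 1.26-fold with an edgeR adjusted p of 0.0314, which lay between 0.0155 and 0.101 with 1 library left out and passed only without TGFB library 3. Traf6 (68.5, 61.9 and 68.6) fell 1.24-fold with an edgeR adjusted p of 0.0159, lost without control library 3 (0.0991). All 3 genes lay below their controls in every TGFB library.

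Myd88 (33.5, 37.5 and 42.8 scaled CPM), Ticam2 (6.95, 8.39 and 8.14), Irak3 (5.9, 4.76 and 4.59) and Ly96 (6.55, 9.2 and 7.13) were not called after TGFB. Per kb, Tlr2 (60.5 ± 1.16) stood above Cd14 (48.1 ± 2.08) in these cells, the reverse of the other 3 conditions. Summed over the 10 members, Cd14 made up 58.5% of the level per kb in controls, 58% after LPS, 52.6% after IL-10 and 29.7% after TGFB. Tlr2 made up 7.76%, 26.5%, 6.48% and 37.4% in the same order.

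**Figure D2:**
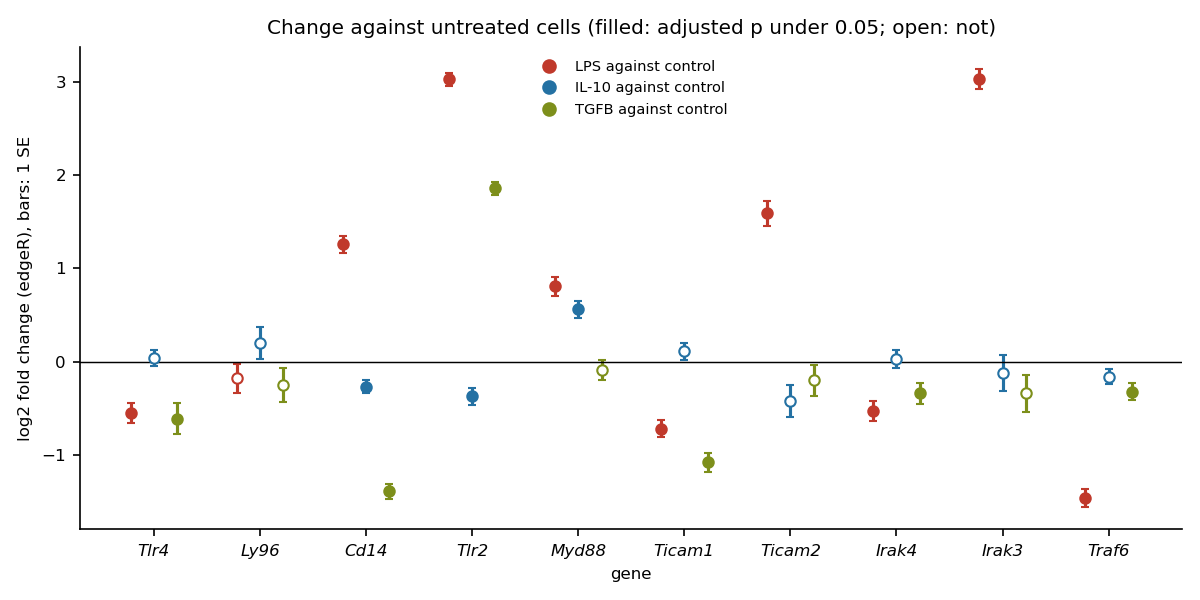
Log2 fold change of each gene against untreated cells after LPS, IL-10 and TGFB, from edgeR, with bars of 1 SE and filled points for adjusted p under 0.05. Tlr2 is high after LPS (3.03) and TGFB (1.86), Cd14 has opposite signs after LPS (1.26) and TGFB (-1.39), and Irak3 is high after LPS (3.03) and not called after IL-10 or TGFB.

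The comparisons with control share the 3 control libraries, so treatments were also compared directly, in a fit of the 12 cell libraries. LPS against IL-10 called 8 members, 4 in each direction, where 53.3% of all genes were called. Tlr2 was 10.6-fold higher after LPS than after IL-10 (log2 difference 3.4, SE 0.07), Irak3 8.86-fold, Ticam2 4.01-fold and Cd14 2.87-fold. Traf6 was 2.45-fold, Ticam1 1.78-fold, Tlr4 1.5-fold and Irak4 1.47-fold lower. Myd88, higher than control after either agent, did not differ between them in this test (log2 difference 0.25, SE 0.11, edgeR adjusted p = 0.0569). That value passed with limma-voom (adjusted p = 0.00515), with a minimum mean of 50 counts (0.0473), with library totals as scaling (0.00149) and without LPS library 1 (0.00987). Library totals as scaling also moved the share of higher calls from 50.7% to 71.6% and took Tlr4 out of the calls (adjusted p = 0.0897).

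LPS against TGFB called 7 members, 6 of them higher after LPS, where 57.1% of all genes were called. The gap was widest for Irak3 (10.3-fold) and Cd14 (6.25-fold), followed by Ticam2 (3.44-fold), Tlr2 (2.25-fold), Myd88 (1.87-fold) and Ticam1 (1.28-fold). Traf6 was 2.21-fold lower after LPS. Both agents lowered Tlr4 against control, and between them it differed by a log2 of 0.06 (SE 0.16, edgeR adjusted p = 0.764), with a sign that turned in 3 of the 6 fits that left out 1 library and a call without TGFB library 3 (log2 difference 0.3, adjusted p = 0.0447).

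TGFB against IL-10 called 6 members, where 38.3% of all genes were called. Tlr2 was 4.68-fold higher after TGFB (log2 difference 2.23, SE 0.07). Ticam1 was 2.28-fold, Cd14 2.18-fold, Tlr4 1.57-fold, Myd88 1.57-fold and Irak4 1.29-fold lower after TGFB than after IL-10. With library totals as scaling, the Irak4 difference was not called (adjusted p = 0.132) and the share of higher calls over all genes was 67.9%, against 47.8%. Ly96 was called in none of the 3 direct comparisons, with edgeR adjusted p between 0.0585 and 0.784. Without IL-10 library 2 it was called lower after LPS and after TGFB than after IL-10 (adjusted p = 0.0375 and 0.0335), and lower after TGFB than after IL-10 also without TGFB library 2 (0.0233).

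**Figure D3:**
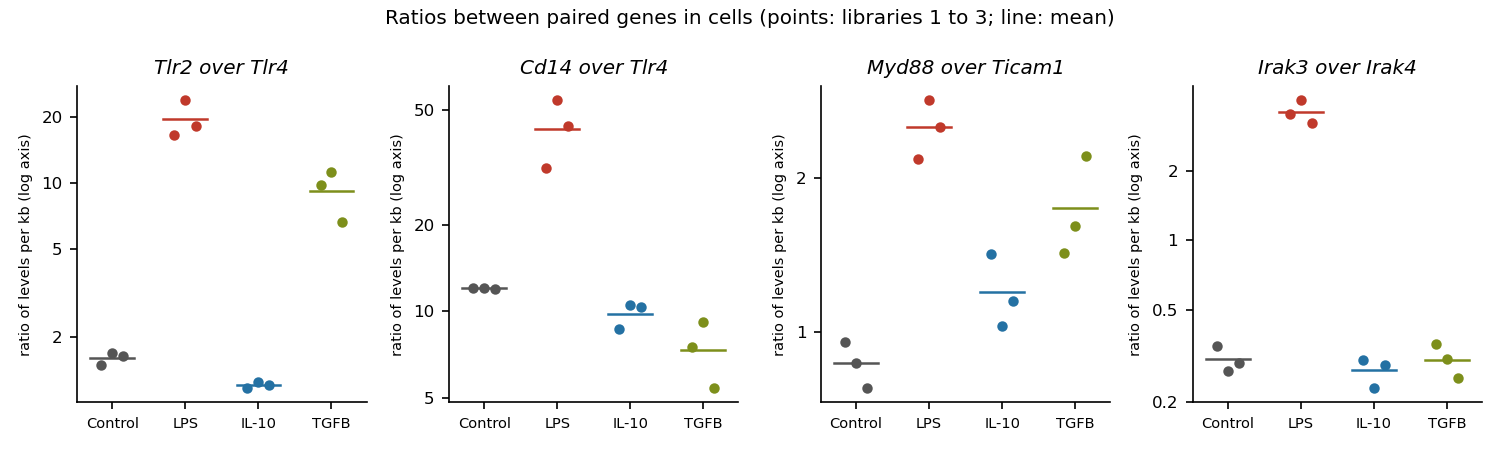
Ratio of levels per kb of exon, on a log axis, for 4 pairs of genes in the 12 cell libraries, with points for libraries and lines for means of 3. Tlr2 over Tlr4 is 19.5 after LPS and 9.26 after TGFB against 1.6 in controls, and Irak3 over Irak4 is above 1 only in the LPS libraries.

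Other genes of the pathway were read from 3 lists, whose counts stand against the shares of all genes called, 56.1% after LPS, 23.2% after IL-10 and 29.9% after TGFB. Among 18 other Toll-like receptors and co-receptors, 12 were listed and tested. After LPS 4 rose and 4 fell: LPS-binding protein gene Lbp rose 21-fold from a low level (0.402 ± 0.37 to 8.11 ± 0.309 scaled CPM), Tlr1, the partner of TLR2, 2.52-fold and the chaperone gene Hsp90b1 1.59-fold, and Cnpy3, which helps receptors fold, fell 1.33-fold. After IL-10 3 rose and 3 fell, with Lbp again up (16.7-fold, to 6.53 ± 0.468), Ly86 up 1.48-fold and Tlr7 and Unc93b1 down 1.33-fold and 1.17-fold. After TGFB 4 rose and 2 fell: the scavenger receptor gene Cd36 fell 4.54-fold, and Hsp90b1 (1.78-fold), Ly86 (1.74-fold) and Tlr7 (1.49-fold) rose. Lbp, given here for TGFB because its protein acts before CD14 and after its values were seen, read 1.45 ± 0.52 and was called higher as well (3.63-fold, edgeR adjusted p = 0.0362).

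Of 21 kinases, ligases and factors below the adaptors, 5 rose and 5 fell after LPS. The kinase gene Ikbke rose 11.7-fold and the interferon regulatory factor gene Irf7 2.89-fold, while the kinase genes Irak2 and Irak1 fell 1.95-fold and 1.58-fold. IL-10 raised 4, among them Irf7 (1.62-fold), Tbk1 (1.41-fold) and Chuk (1.29-fold), and lowered 3, among them Irf5 (1.37-fold). TGFB raised none and lowered Irf7 (6.41-fold) and Irf5 (1.6-fold). Irf7 therefore rose with LPS and IL-10 and fell with TGFB.

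Of 20 inhibitors of TLR signalling 17 were listed, and 8 rose and 3 fell after LPS. Socs1, which damps cytokine signalling, rose 37.7-fold from a few counts per library (10, 3 and 4 counts in controls, 322, 208 and 276 after LPS). Zc3h12a, an RNase of cytokine transcripts, rose 11.1-fold, Aoah, an enzyme that inactivates LPS, 10.3-fold and Tnfaip3, a deubiquitinase that restrains NF-kappa B, 7.37-fold. IL-10 raised 4 of 16 tested and lowered 2. Those with the lowest adjusted p, Atf3, Tollip, Tnip1 and Tnfaip3, changed by at most 1.38-fold, and Il1rl1, a receptor of the interleukin-1 family, fell 1.8-fold (edgeR adjusted p = 0.0487). TGFB raised 6 and lowered 4: the phosphatase gene Inpp5d rose 1.9-fold and Ptpn6 1.41-fold, and Tnip1 and Atf3 fell 1.96-fold and 1.62-fold. Aoah, which rose after LPS, fell 5.76-fold after TGFB (edgeR adjusted p = 0.000422), and Socs1 rose 4.73-fold (edgeR adjusted p = 0.0137). The list's median log2 change was 0.2 after LPS, 0.1 after IL-10 and 0.31 after TGFB, against at most 0.01 over all genes.

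Over the 12 cell libraries, which fall into 4 treatment groups, the gene whose log2 level followed Irak3 most closely among 10109 compared was the cytokine gene Il1b (Pearson's r = 0.996). For Tlr2 it was Tagap (0.993), for Cd14 the metabolic enzyme gene G6pdx (0.991), for Ticam1 Gprc5b (0.986) and for Ticam2 the DNA polymerase subunit gene Pola2 (0.985). Traf6 was followed by Tcp11l2 (0.984), Myd88 by the calcium-binding protein gene S100a11 (0.98), Irak4 by Oxr1 (0.961) and Tlr4 by Fnbp1l (0.945). Ly96, the member with no called change, had the lowest best match, Fars2 (0.877). Among the members, Ticam2 and Irak3 were most alike (0.965), then Tlr4 and Irak4 (0.874). Treatment is shared by all these points, and the values are a description only.

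In EVs, 5 members had counts in all 12 libraries: Cd14, Tlr2, Myd88, Irak4 and Traf6. Ly96 and Ticam1 had counts in 10, Ticam2 in 8, Tlr4 in 7 and Irak3 in 4. Control EV libraries 1, 2 and 3 had 1, 4 and 3 members at 0. The 3 LPS EV libraries had none at 0, the IL-10 ones 1, 3 and 2 and the TGFB ones 4, 0 and 3. The spread between libraries was wide: Tlr4 read 71, 0 and 0 scaled CPM in control EVs and 37.6, 22.1 and 2.75 after LPS, while in cells its widest group, TGFB, ran from 30.4 to 49.4. Genes with no count in any cell library gave, at the length of Tlr4, 46.9, 140 and 139 counts in the LPS EV libraries. Tlr4 itself had 188, 105 and 22 counts there.

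Per kb of exon, Cd14 was the most abundant member in EVs of every treatment, at 138 ± 27.4 scaled CPM per kb in control EVs, 162 ± 70.3 after LPS, 75.7 ± 23.8 after IL-10 and 82.6 ± 34.4 after TGFB. In control EVs Myd88 (24.1 ± 9.47), Tlr2 (23.3 ± 9.99) and Ly96 (16.3 ± 7.73) came next and did not differ beyond their spread. Below them lay Ticam1 (9.49 ± 8.3), Traf6 (6.98 ± 7.59), Tlr4 (4.26 ± 7.38), Irak4 (3.03 ± 2.79) and Ticam2 (0.432 ± 0.749), each with an SD close to or above its mean, so their order in EVs is not resolved. In cells the SD of Cd14 was at most 40.3, against a mean of 297 after LPS.

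Among the adaptors of the endosomal branch, Ticam1 read 39.2, 0 and 46 scaled CPM in control EVs, 4.99, 20.4 and 12.4 after LPS, 0.461, 1.67 and 87.6 after IL-10 and 0, 29.2 and 1.54 after TGFB. Ticam2 read 7.51, 0 and 0 in control EVs and 0.2, 13.7 and 24.4 after LPS. In both genes the groups overlapped, and neither was called. Irak4 was steadier after LPS, at 26.4, 33.9 and 32.6 against 14, 1.79 and 29.8 in control EVs (log2 change 1.2, SE 1.14, edgeR adjusted p = 0.745). Irak4 had 132, 161 and 261 counts after LPS, and genes with no count in any cell library gave 42.4, 127 and 126 at its length. For Ticam1 these were 25, 97 and 99 against 25.3, 75.4 and 74.8. For Ticam2 they were 1, 65 and 195 against 48.9, 146 and 145. For Traf6 they were 108, 164 and 345 against 66.6, 199 and 197. Cd14, Tlr2, Myd88 and Ly96 lay above that level in every LPS library. The level is a high estimate, as set out below for Irak3, and its part in these values was not tested. Ly96 read 20.3, 7.55 and 22 in control EVs and 11.2, 16.4 and 21.9 after LPS, and its log2 change of 0.17 had an SE of 1.06. Traf6 read 18.6, 124 and 22.4 in control EVs and 21.6, 34.6 and 43.1 after LPS, and was not called (log2 change -0.53, SE 0.86).

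LPS against control called 1 member in EVs, Irak3, where 14.2% of all genes were called, 1703 of 1732 higher. The median log2 change over all genes tested was itself 0.33, and that of the members 0.55. Irak3 had 0 counts in the 3 control EV libraries and 37, 48 and 79 in the LPS ones, or 7.39, 10.1 and 9.88 scaled CPM. Against the limit of 3 counts per control library, which covers counting error only, this is 23.4-fold higher (edgeR adjusted p = 0.025). Genes with no count in any cell library gave, at the length of Irak3, 31.1, 92.6 and 91.9 counts in the same LPS libraries, near or above the Irak3 counts. Those genes are in the tables only because EVs have counts for them, so their level is a high estimate. With counts lowered by that level, 0 members and 1 gene were called, and the Irak3 call was also lost without any 1 of the LPS EV libraries (adjusted p = 0.0713 to 0.106) and in the fit of all 12 EV libraries (0.13).

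**Figure D4:**
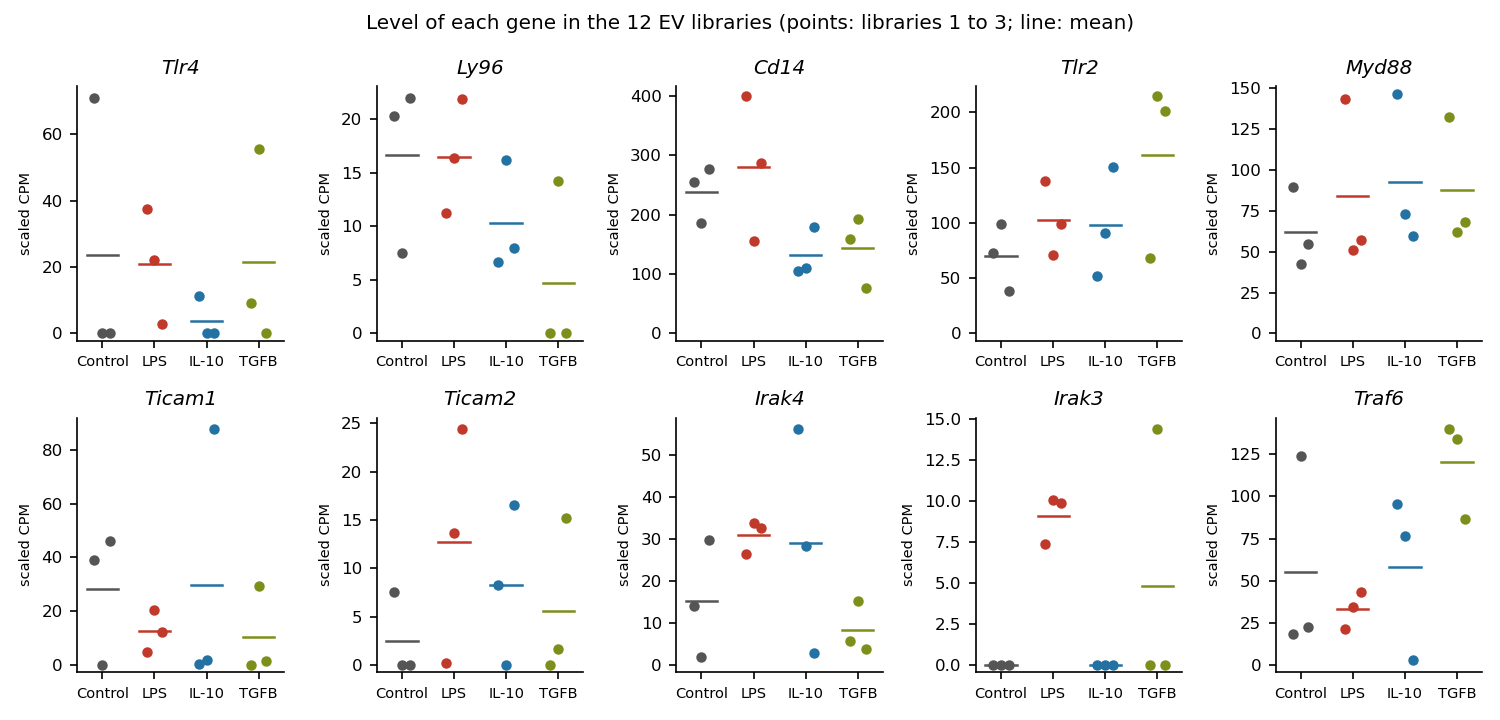
Level of each of the 10 genes in scaled CPM in the 12 EV libraries, by treatment, with points for libraries and lines for means of 3. Points at 0 are libraries with no count: Irak3 is at 0 in all control and IL-10 EVs and lies between 7.39 and 10.1 in LPS EVs.

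The receptors that rose in LPS cells were not called in LPS EVs. Cd14 read 254, 185 and 276 scaled CPM in control EVs and 400, 156 and 286 after LPS, and Tlr2 73.2, 98.7 and 38.7 against 138, 71.2 and 99.4. Both pairs of groups overlapped (log2 changes 0.45, SE 0.47, and 0.77, SE 0.52, edgeR adjusted p = 0.781 and 0.554). Myd88 read 89.3, 42.3 and 54.5 in control EVs and 143, 51 and 57.4 after LPS, again overlapping. Of the other pathway genes, Tlr3, Lbp and Cd36 (co-receptor list) and Sarm1 (inhibitors) were called higher in LPS EVs from 0 counts in all 3 controls, as Irak3 was, with 21 to 27, 83 to 217, 9 to 116 and 34 to 73 counts after LPS. Genes silent in cells gave 8.45, 25.2 and 25 counts per kb of exon in these LPS libraries. With counts lowered by that level, 1 gene of all those tested was called. The part of that level in these 4 calls was not tested gene by gene. Unc93b1, needed to traffic endosomal receptors, fell 3.12-fold (edgeR adjusted p = 0.0481), and 0 of the 21 kinases and factors were called. Without any 1 of the LPS EV libraries, 0 of all genes were called. The same held in the fit of all 12 EV libraries and at a minimum mean of 50 counts, so none of these pathway calls held there.

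IL-10 and TGFB called 0 members in EVs, and 0% of all genes in either comparison, with edgeR. At an unadjusted p under 0.05 there were 177 and 360 genes, and DESeq2 called 45 and 77. Of the 10 members 8 passed the count filter in each: Tlr4 and Irak3 did not for IL-10, nor Ticam2 and Irak3 for TGFB. After IL-10, Cd14 read 105, 110 and 179 scaled CPM, below all 3 control EVs but not called (log2 change -0.89, SE 0.46). After TGFB, Tlr2 read 68.3, 215 and 201, with 1 library inside the control range (log2 change 1.21, SE 0.6). Traf6 read 140, 134 and 86.9 after TGFB against 18.6, 124 and 22.4 in controls (log2 change 1.22, SE 0.85). Irak3 had 123 counts in TGFB EV library 2 and 0 in the other two.

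**Figure D5:**
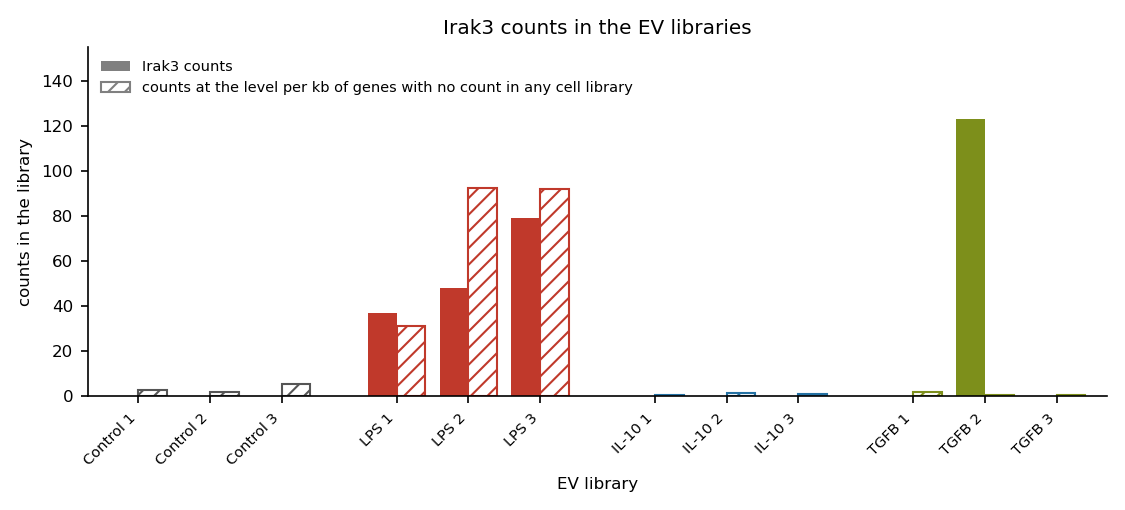
Irak3 counts in each EV library (filled bars) beside the counts that its exonic length would give at the level per kb of genes with no count in any cell library (hatched bars). Irak3 is at 0 in the control and IL-10 libraries, at 37 to 79 in the LPS libraries, whose hatched bars reach 31.1 to 92.6, and at 123 in 1 TGFB library.

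EVs were also set against the cells of the same treatment. Untreated, 1 of 10 members was called, close to the 10.7% of all genes (limma-voom called 3 members). Irak3, at 0 counts in control EVs, stood in the cells 16.5-fold above the limit of 3 counts per EV library (edgeR adjusted p = 0.0216, 0.146 to 0.153 without any 1 of the cell libraries). That limit covers counting error only. Tlr4 had 1381, 0 and 0 counts in the same control EV libraries, so the fold is no firm bound. Cd14 read 238 ± 47.4 scaled CPM in control EVs and 217 ± 17.2 in cells, and Myd88 62 ± 24.4 and 40.2 ± 3.33, neither called. After IL-10, 1 of 10 was called, against 17.7% of all genes (limma-voom again called 3 members). It was Irak3 again, in the cells 10.2-fold above the same kind of limit (edgeR adjusted p = 0.0184, 0.107 to 0.117 without any 1 of the cell libraries). After TGFB, 0 members were called with edgeR, against 18.4% of all genes, with 2 members at an unadjusted p under 0.05 (Traf6 and Myd88), 1 called by DESeq2 and 2 by limma-voom.

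After LPS 2 members were called, against 40.5% of all genes: Tlr2 and Irak3 were lower in EVs than in cells. Tlr2 read 103 ± 33.5 scaled CPM in LPS EVs and 406 ± 13 in LPS cells, 3.86-fold lower (log2 difference -1.95, SE 0.28, edgeR adjusted p = 0.00117). Irak3 read 9.13 ± 1.51 in LPS EVs and 51.9 ± 2.4 in LPS cells (log2 difference -2.48, SE 0.3, edgeR adjusted p = 0.000635). Its EV counts of 37, 48 and 79 lay near or below the 31.1, 92.6 and 91.9 that genes silent in cells gave at its length, so the size of this difference is not a measurement of Irak3 in EVs. Every EV library lay below every cell library for both genes, and both calls held with each library left out. Cd14, the most abundant member in either, read 281 ± 122 against 515 ± 69.8 and was not called (edgeR adjusted p = 0.0818). DESeq2 called 5 members and limma-voom 6.

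The difference between compartments in the change itself was tested as an interaction. For LPS, 2 members were called, where 16.1% of all genes were. The change of Tlr2 was smaller in EVs than in cells by a log2 of 2.44 (interaction -2.44, SE 0.48, edgeR adjusted p = 0.00571). The fitted change of Irak3 was larger in EVs (edgeR adjusted p = 0.00258), but neither its size nor its direction is a measurement. Control EVs had 0 counts of Irak3, and its counts in LPS EVs lay near or below the level of genes silent in cells. For Cd14 the interaction was -0.98 (SE 0.44, edgeR adjusted p = 0.198), and it passed without LPS EV library 1 (-1.33, adjusted p = 0.0455). The calls of Tlr2 and Irak3 held with each library left out and were lost with limma-voom, where the Tlr2 interaction was of like size (-2.37, adjusted p = 0.0714) and the fitted Irak3 value went from 7.56 to 4.16 (adjusted p = 0.207). For IL-10 and TGFB 0 members were called, where 0.285% and 0.31% of all genes were, with 1440 and 1567 genes at an unadjusted p under 0.05 and 701 and 780 called by DESeq2.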

How the data were processed

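Per the labels' protocols, RNA came from miRNeasy columns, cDNA from SMART-Seq v4 and libraries from Nextera XT, read from both ends over 150 bases. The deposited tables hold raw counts per gene symbol, whole numbers with no normalization by the authors. DESeq2 is named, without a version, in the submitters' processing notes. The aligner, the annotation and the build they used were not given in the sources used here. Every listed gene has at least 240 counts summed over the 24 libraries. Each compartment's control columns recur unchanged in its 3 tables and were used once. Cells that received EVs, mentioned in the series design, are not analysed here.

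The members and lists were chosen with earlier results of these data known. All members are described for each treatment against control in cells. In the other comparisons the members called by the main edgeR test are named, with some of those not called. Of each pathway list, up to 4 called genes with the lowest adjusted p are named in the comparisons with control. Of the 2 genes most like each member over the cell libraries, the first is named. The values of Lbp and Socs1 after TGFB, Aoah after TGFB and Il1rl1 after IL-10 were added after they were seen.

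Tests used edgeR 4.0.16 (TMM, filterByExpr, robust quasi-likelihood fit) in R 4.3.3. Each comparison was fitted on its own 6 libraries, direct contrasts on the 12 cell libraries, and interactions on 12 libraries. The fit was also run on simulated counts for LPS against control in cells and in EVs, without filterByExpr on those counts. No result here rests on that run. Exonic lengths and positions came from GENCODE M21 (GRCm38) by symbol. As alternatives, results were recomputed with DESeq2 1.42.0, limma-voom with quality weights (limma 3.58.1), RLE scaling, other count filters, other libraries in the fit, EV counts lowered by the level per kb of genes without cell counts, leaving out each library and, added after the data were seen for comparisons within a compartment, scaling by library totals. Figures were drawn in Python 3.11.15 with matplotlib 3.10.9.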

Additional observations from a re-analysis of the deposited data

Results flagged for a closer look

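The effect of LPS on Tlr2 differed between compartments in the edgeR test. The interaction, the log2 change in EVs minus that in cells, was -2.44 (SE 0.48, edgeR adjusted p = 0.00571), with Tlr2 at 406 ± 13 against 50.1 ± 3.13 scaled CPM in cells and at 103 ± 33.5 against 70.2 ± 30.1 in EVs (mean ± SD, n = 3 libraries). With limma-voom the Tlr2 interaction was -2.37 and was not called (adjusted p = 0.0714). The fitted effect of LPS on Irak3 differed in the other direction. Its fitted interaction was 7.56 (SE 1.16, edgeR adjusted p = 0.00258), a number set by the 0 counts of the 3 control EV libraries and no bound on the difference. Irak3 had 37 to 79 counts in the LPS EV libraries, near the 31.1 to 92.6 that genes silent in cells gave at its length. The direction of its interaction is therefore not established either.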

How the results depend on the processing

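No paired analysis was possible because the library numbers are in no label. The cell comparisons kept their counts of called members within 1.5 times under the alternatives run, apart from IL-10 with library totals as scaling (5 members, uncalled Tlr4, Ticam1 and Irak4 at -0.12, -0.04 and -0.13) and TGFB with 1 library left out (3 to 6). Uncalled cell values that changed sign with 1 library left out ranged from -0.03 to 0.08 (Tlr4), -0.27 to 0 (Irak3) and -0.03 to 0.07 (Irak4) after IL-10, from -0.19 to 0 (Myd88) after TGFB, and from -0.08 to 0.3 (Tlr4) and -0.04 to 0.21 (Ly96) for LPS against TGFB.

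EV counts moved with most settings, and the cause was not tested. For LPS against control EVs, limma-voom called 3 members and 3038 genes, a minimum mean of 50 counts 0 and 0, all 12 EV libraries in the fit 0 and 0, and lowered counts 0 members and 1 gene, with 0 to 2 members and 0 to 2599 genes when 1 library was left out. Uncalled signs turned for Myd88 after LPS (-0.05 to 1.01) and Tlr2 after IL-10 (0 to 0.83). DESeq2 called 45 genes for IL-10 and 77 for TGFB. For EVs against cells, DESeq2 called 2459 genes untreated, 5 members after LPS, 2 members and 3601 genes after IL-10, and 1 member and 3691 genes after TGFB. limma-voom called 3 members and 2125 genes, 6 members, 3 members and 3043 genes, and 2 members and 3382 genes in the same order, and a minimum mean of 50 counts gave 549 genes untreated. With 1 library left out, these ranged over 0 to 3 members and 0 to 4175 genes untreated, 2 to 6 and 3432 to 7296 after LPS, 0 to 3 and 0 to 4422 after IL-10, and 0 to 3 and 340 to 4071 after TGFB, where Irak3 ran from -9.72 (without the 1 library that holds its counts) to 0.49. The interaction for LPS had 0 members and 83 genes with limma-voom, 842 genes at a minimum mean of 50 counts, and 2 to 4 members and 1575 to 3587 genes with 1 library left out. Those for IL-10 and TGFB had 701 and 780 genes with DESeq2, 2 and 4 with limma-voom, and 2 to 272 and 3 to 432 genes with 1 library left out, with 0 to 1 member for TGFB. Depth was 3.02 to 17.98 M counts in EVs. The LPS EV libraries, at 3.02 to 6.28 M, had 0 members at 0, and the deepest, control EV library 1 at 17.98 M, had 1.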
